A study of Homo sapiens with 2 samples.

Results

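The clustered protocadherins are cell surface proteins of the cadherin superfamily, and their genes stand in 3 neighbouring groups, alpha, beta and gamma, on human chromosome 5. Members were chosen by gene symbol and by position on chromosome 5 in the deposited gene tables, and neither the expression level nor the difference between samples was used. This gave 56 of the 55797 genes measured in both samples. The alpha cluster held 16 genes (14 alpha and 2 C-type), the beta cluster 18, and the gamma cluster 22 (12 gamma A, 7 gamma B and 3 gamma C). Pseudogenes among them were PCDHA14, PCDHB18, PCDHB19P and PCDHGB8P.

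The study asked whether RNA taken from cells after fixation, staining inside the cell and sorting still represents the transcripts of fresh cells. The source of both RNA-seq libraries was H1, a long-established line of human embryonic stem cells, differentiated stepwise to Stage 6, a mixed culture with some cells that make insulin. Live cells were neither fixed nor sorted, and their RNA was extracted with the RNeasy kit. Processed cells were fixed in 4% paraformaldehyde, permeabilized, antibody stained and passed through a sorter that collected every cell, and their RNA was extracted with a modified RecoverAll kit. Each condition had 1 library of paired reads of 80 nt, so there was no replicate error and no test between live and processed cells was possible. Fixation, staining, sorting and the extraction kit changed together and cannot be told apart, and in bulk RNA fewer cells of a type cannot be told apart from less RNA per cell.

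In the alpha and gamma clusters each gene has its own large variable exon, which codes for the outside part, the membrane segment and some of the inside part of the protein. That exon is spliced to constant exons that all genes of the cluster share. Beta genes are single large exons with no constant part. In neurons each cell switches on a small, largely random set of these promoters through CTCF and cohesin, and the proteins bind only to their like on the next cell, which lets a neuron tell its own branches from those of others. The C-type genes are the exception, since many neurons express them without such a choice.

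The constant exons are shown because the FPKM of 15 of 16 alpha genes and 21 of 22 gamma genes rests partly on them, all but the pseudogenes PCDHA14 and PCDHGB8P. FPKM is the number of fragments scaled to transcript length and to library size, so levels can be compared between genes per length. All coordinates of exons are on GRCh37, plus strand. The shortest alpha constant exon lies at chr5:140358534-140358592 and was annotated in 15 alpha genes. Its gamma counterpart lies at chr5:140874374-140874432 and was annotated in 21 gamma genes.
alpha constant exon: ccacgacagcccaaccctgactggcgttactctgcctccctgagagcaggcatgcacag
gamma constant exon: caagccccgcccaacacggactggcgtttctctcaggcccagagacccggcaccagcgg
Both are 59 nt long and were identical at 39 positions (66.1%). The constant exons that follow them, both 89 nt, were identical at 29 positions (32.6%). The spliced junctions below show how a gene is told apart from its neighbours, with the last 20 bases of the variable exon in lower case and the start of the constant exon in capitals.
PCDHA4, variable exon chr5:140186653-140189157: ctgaggaatcctttgcaaagCCACGACAGC
PCDHAC1: acgctaatgtcaatgccatgCCACGACAGC
PCDHGA3, variable exon chr5:140723396-140726024: gagattccaacctacttcagCAAGCCCCGC
PCDHGB7, variable exon chr5:140797244-140799841: ataagaagattcttaaacagCAAGCCCCGC
Only reads that touch the lower case side name the gene. For each gene the transcript with the most constant exon sequence was taken, so other transcripts of a gene can hold less. In those taken, constant exons made up 2177 nt in each of 21 gamma genes beside a median of 2599 nt of variable exon. In alpha they made up a median of 2869 nt beside 2532 nt. A window of 80 nt, the read length, was found in another member for 48.0% to 65.4% of alpha transcript windows (median 53.6%, 15 genes) and for 44.5% to 51.2% of gamma windows (median 46.2%, 21 genes). In the 16 beta genes that are not pseudogenes the share was 0 to 32.5% (median 8.01%). How the fragments of shared sequence were divided among genes cannot be read from the FPKM values.

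Promoters were looked at because each variable exon has a promoter of its own. RefSeq windows on GRCh38.p14, 250 bases before and 50 after the annotated start, were held for 46 of the 56 members. The letters CGCT, the core of the sequence shared by these promoters, were found on the plus strand in 45 of the 46 (97.8%), against 54.3% of 35116 windows of the same length from all genes. On either strand the counts were 45 of 46 and 24584 of the 35116. Within the 100 bases before the start the letters stood in 43 of 46 members (93.5%) and in 28.1% of all windows, a stretch that was set after the matches were seen. Over members with a match in that stretch, the median distance from the start was -55 bases. It was -51.5 in alpha, -62 in beta and -50 in gamma. Where several matches stood in the stretch, the match nearest to -50 bases was used, so these medians rest partly on that choice. PCDHA9, PCDHB8 and PCDHGB2 had no match in that stretch. The 30-base sequences below are on the plus strand, with CGCT in capitals, and were chosen to show some highly expressed genes of each cluster beside genes that were at or near 0 in one library.
PCDHA4, chr5:140806982-140807011: agccacatgatgtCGCTctttaccacaaaa
PCDHA11, chr5:140868886-140868915: aggcgcaaggtgtCGCTctttacttggtgg
PCDHAC1, chr5:140926223-140926252: tagaaggtgtggtCGCTcacgttcaccgtc
PCDHB2, chr5:141094547-141094576: agacgcggggtggCGCTgcagccttagaag
PCDHB5, chr5:141135182-141135211: ggacgcctggtggCGCTgcaggctaagagt
PCDHB1, chr5:141051277-141051306: tggggagttgagtCGCTcaatgcaaatttt
PCDHGA3, chr5:141343770-141343799: ggcctcttagtgtCGCTgttgaccactcaa
PCDHGA9, chr5:141402717-141402746: ggactctgagcgcCGCTgttgatcaactct
PCDHGB6, chr5:141407951-141407980: agtgcagagcaagCGCTgacgccggggatc
PCDHGB7, chr5:141417610-141417639: agtgcagagcaagCGCTgacgccggggatc
The 30 bases of PCDHGB6 and PCDHGB7 were identical. The letters most often seen before the core differed by cluster, though PCDHA11 of alpha and PCDHGA4 of gamma held the same 9 letters, GGTGTCGCT. The 9 letters most often seen in each cluster were GATGTCGCT in 9 of 13 alpha promoters, GGTGGCGCT in 13 of 14 beta promoters and AGCGCCGCT in 4 of 19 gamma promoters, all on the plus strand and each containing CGCT. They were picked from these same promoters. None was found in a member of another cluster, and they stood in 0.0740%, 0.302% and 0.205% of all windows. The highest beta gene, PCDHB5, held GGTGGCGCT, and so did low genes such as PCDHB7, at 0.141 FPKM in live and 0.425 in processed cells. PCDHB1, one of the lowest, was the beta promoter that held CGCT without those 9 letters. A link between these letters and the level was not tested. A match is a description of the sequence and not a measured binding site.

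**Figure D1:**
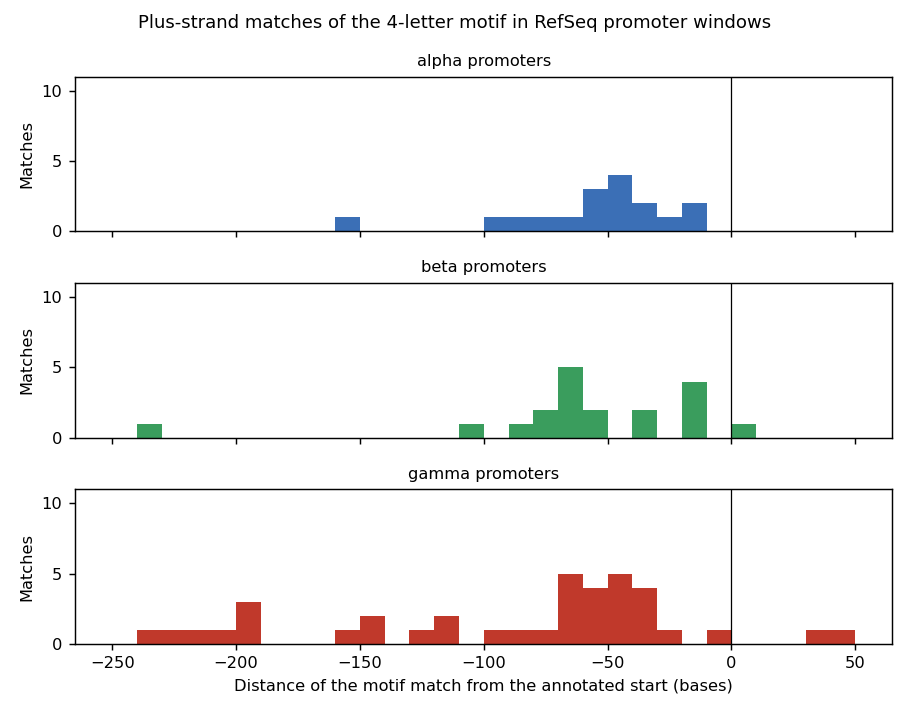
Distance in bases of each plus-strand match of the 4-letter motif from the annotated start (x axis, 0 is the start) and number of matches per 10 bases (y axis) in alpha, beta and gamma promoter windows. Matches gather before the start, and gamma windows also hold matches further upstream. Median distances were -51.5, -62 and -50 bases for the match used in each gene. Where several matches stood within the 100 bases before the start, this was the match nearest to -50 bases.

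Clustered protocadherins were expressed in Stage 6 cells at low to moderate level, and the same few genes led each cluster in both libraries. Of the 56 members, 25 had an FPKM of 1 or more in the live library, 23 in the processed library and 22 in both. In either library it was 26 members, of which 8 were alpha, 10 beta and 8 gamma. Only PCDHB2 and PCDHB5 were at 10 or above, in both libraries. At the other end, 30 members stayed below 1 in both libraries, with values of at most 0.886 in live and 0.971 in processed cells. Members below an FPKM of 0.001, which are here called near 0, numbered 10 in live cells and 13 in processed cells, and PCDHGA5, PCDHGC5 and PCDHGB8P were near 0 in both. Across the 56 members the Spearman correlation of FPKM between the libraries was 0.838. It was 0.954 within beta, 0.759 within alpha and 0.748 within gamma, given as a description over 18, 16 and 22 genes of the same pair of libraries.

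**Figure D2:**
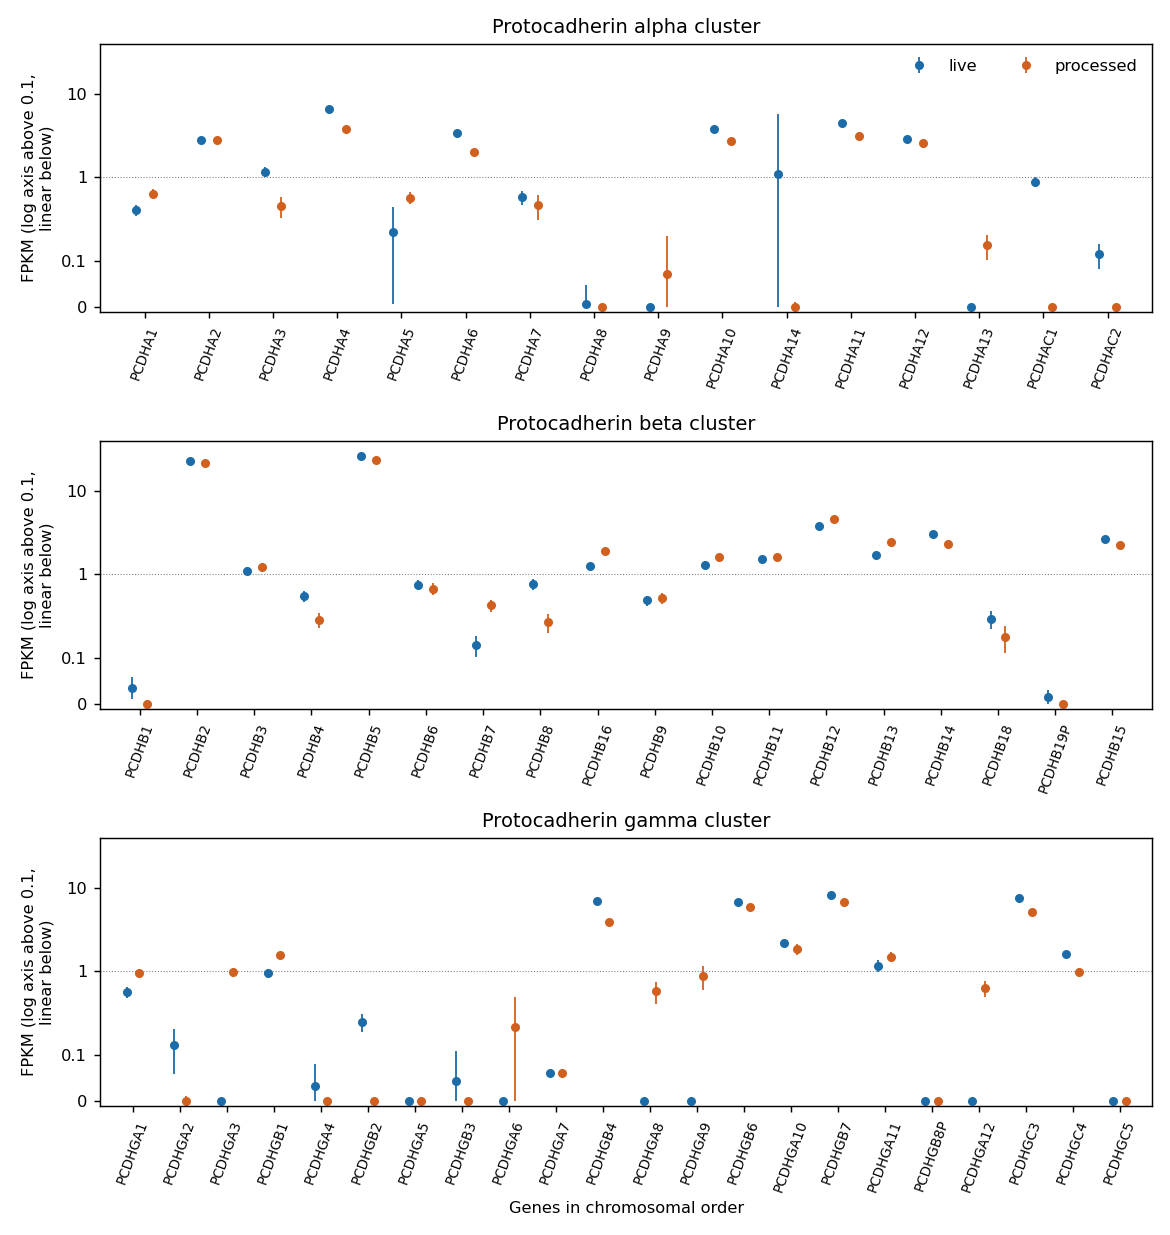
FPKM of each of the 56 clustered protocadherin genes in chromosomal order (y axis, logarithmic above 0.1 and linear below), with live cells in blue and processed cells in orange. Vertical lines are the bounds in the authors' tables and the dotted line marks an FPKM of 1. PCDHB2 and PCDHB5 stand above all others in both libraries, while PCDHGA3, PCDHGA8, PCDHGA9 and PCDHGA12 have a processed point well above a live point at 0.

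The question for these genes was whether the processed library gave the level of the live library. The log2 ratio given here is that of processed to live FPKM after 1 was added to each, and adding 1 makes differences in low genes look smaller than they are. Among the 26 members that reached an FPKM of 1 in a library, 0 passed 2-fold upward in processed cells, where 6.57% of 17326 genes were. Past 2-fold downward was 1 member, the pseudogene PCDHA14, where 6.19% of all genes were. Without the pseudocount, 2 of the 26 members, PCDHA14, whose processed value was near 0, and PCDHA3, were more than 2-fold apart, against 20.8% of all genes. The median log2 ratio was -0.17 over the 26 members and -0.092 over the 17326 genes. Processed FPKM was below live FPKM in 18 of the 26 members (69.2%) and in 58.3% of all genes.

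The authors' tables give a lower and an upper bound for each FPKM, and these bounds describe the precision within a library, not the spread between samples. The bounds of live and processed cells did not overlap in 18 of the 26 members, where 71.8% of all genes had bounds apart. Of these 18, 5 were higher in processed cells (28.1% of all genes) and 13 were lower (43.7% of all genes). For members at an FPKM of 1 to 3, averaged over both libraries, the median log2 ratio was 0.021 over 14 members and -0.027 over all 3432 genes of that level. For members at 3 to 10 it was -0.39 over 8 members and -0.11 over 4925 genes, of which 5% lay below -0.98 and 5% above 1.18. The 8 members lay between -0.68 and 0.22, inside that range.

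**Figure D3:**
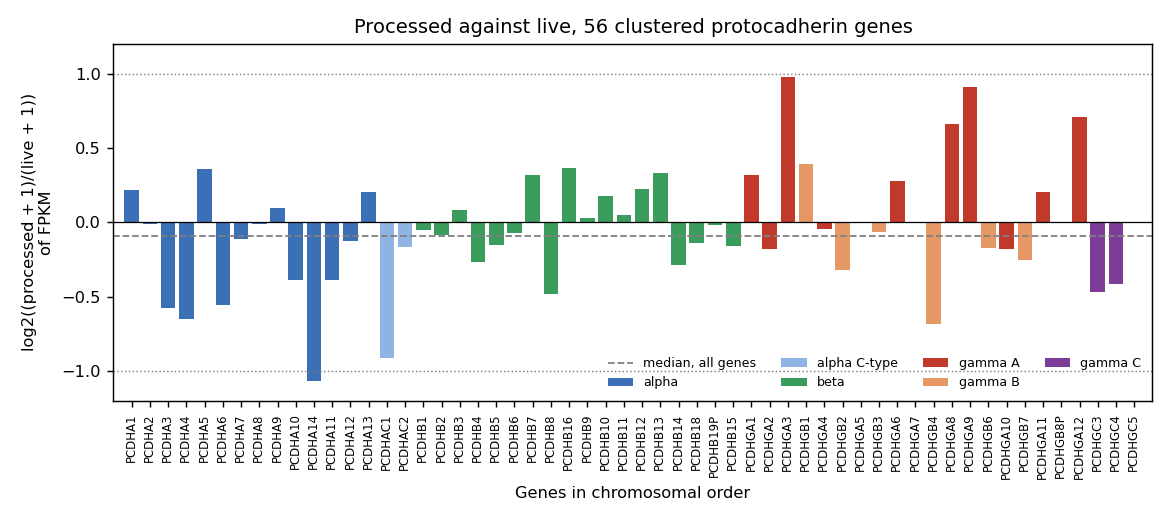
Log2((processed FPKM + 1)/(live FPKM + 1)) of each clustered protocadherin gene in chromosomal order, coloured by type, with dotted lines at 2-fold and a dashed line at the median of all genes, -0.092. Alpha bars lie mostly below 0, beta bars fall on both sides, and gamma A bars include the highest positive values, up to 0.98 for PCDHGA3.

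The alpha genes at an FPKM of 1 or more were lower in processed cells, while alpha genes below that level went both ways. All 8 alpha genes that reached an FPKM of 1 in a library were at the lower value in processed cells as deposited, as were 58.3% of all genes. PCDHA2 turned to a log2 ratio of 0.067 once values were scaled by the median ratio of all genes and to 0.016 once scaled to equal sums. The median log2 ratio of the 8 was -0.47, and it was -0.39 without the pseudogene PCDHA14. Over the 14 alpha genes at 0.1 or above it was -0.28, and over all 16 it was -0.14. Where bounds were apart, 3 of the 14 were higher and 7 lower, beside 25.9% and 45.5% of all genes at that level. Bounds were apart in 5 of the 8, each lower in processed cells. Among all genes 71.8% had bounds apart, 28.1% higher and 43.7% lower. PCDHA4 (ENSG00000204967.6), the highest alpha gene in both libraries, was at 6.60 FPKM in live cells, with bounds of 6.30 to 6.89, and at 3.83 in processed cells (3.61 to 4.05). Its processed level was 0.581 of the live level, and between 0.524 and 0.643 at the extremes of the bounds. The other alpha genes near this level were lower by smaller or like amounts. PCDHA11 was at 4.47 and 3.18 FPKM, a ratio of 0.712. PCDHA10 was at 3.86 and 2.71, a ratio of 0.702. PCDHA6 was at 3.41 and 2.01, a ratio of 0.589. In live cells these stood above PCDHA12 and PCDHA2, whereas in processed cells PCDHA2 stood just above PCDHA10, with bounds that overlapped, and PCDHA6 below PCDHA12. PCDHA12 (2.89 and 2.58 FPKM) and PCDHA2 (2.82 and 2.80 FPKM) had overlapping bounds. PCDHA3 was at 1.17 FPKM in live cells (1.02 to 1.32) and 0.456 in processed cells (0.327 to 0.585), a ratio of 0.389.

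Some low alpha genes went the other way or were near 0 in one library. PCDHA5, with the largest positive log2 ratio in the cluster (0.36), was at 0.222 FPKM in live cells (0.00555 to 0.438) and 0.567 in processed cells (0.473 to 0.661). PCDHA1, singled out after its values were seen, was at 0.407 and 0.639 FPKM with bounds apart. PCDHA13 was near 0 in live cells and at 0.152 FPKM (0.103 to 0.201) in processed cells. The C-type genes showed the opposite. PCDHAC1 was at 0.886 FPKM in live cells (0.769 to 1.002) and near 0 in processed cells, with an upper bound of 0.00852. PCDHAC2, known for its part in spacing the axons of serotonin neurons, was at 0.121 FPKM in live cells (0.0827 to 0.160) and near 0 in processed cells. PCDHA14 was at 1.09 FPKM in live cells and near 0 in processed cells, but its live bounds ran from 0 to 5.72 and its status was not OK. All 2219 windows of PCDHA14 were also found in PCDHA10, so its value cannot be separated from that gene. PCDHA7, PCDHA8 and PCDHA9 lay at 0.578 FPKM or below in both libraries with overlapping bounds.

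The beta cluster kept nearly the same profile. The 10 genes that reached an FPKM of 1 did so in both libraries and had a median log2 ratio of 0.068, with 6 higher and 4 lower in processed cells. Over the beta genes at 0.1 or above that median was -0.020, so its direction depended on the filter. Bounds were apart in 7 of the 10, with 4 higher and 3 lower in processed cells, where 71.8% of all genes had bounds apart, 28.1% higher and 43.7% lower. PCDHB5 (ENSG00000113209.6, chr5:140514800-140517703) was the highest of the 56 members, at 26.6 FPKM in live cells (26.0 to 27.2) and 23.9 in processed cells (23.3 to 24.5). PCDHB2 (ENSG00000112852.4, chr5:140474227-140476962) followed at 23.0 FPKM in live cells (22.4 to 23.6) and 21.7 in processed cells (21.1 to 22.3). Relative to their level, these had the narrowest bounds among members at an FPKM of 1 or more. PCDHB5 made up 38.5% of the summed beta FPKM in live and 36.2% in processed cells, and PCDHB2 33.3% and 32.9%. PCDHB2 had a log2 ratio of -0.082 as deposited and 0.015 once scaled by the median ratio of all genes, so its direction depended on the scaling.

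The other expressed beta genes lay between 1.10 and 4.63 FPKM in both libraries. PCDHB12 was at 3.82 and 4.63 FPKM (ratio 1.21) with bounds apart. PCDHB16 was at 1.25 and 1.91 FPKM, a ratio of 1.52 and the largest positive log2 ratio among beta genes (0.37). PCDHB13 was at 1.72 and 2.43 FPKM (ratio 1.41). These and PCDHB10, at 1.31 and 1.62 FPKM, were the beta genes at an FPKM of 1 or more that were higher in processed cells with bounds apart. PCDHB14 went the other way, from 3.04 FPKM in live to 2.32 in processed cells (ratio 0.762). PCDHB15 (2.65 and 2.27 FPKM), PCDHB11 (1.53 and 1.62 FPKM) and PCDHB3 (1.10 and 1.23 FPKM) had overlapping bounds.

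Among the 8 beta genes below 1 in both libraries, PCDHB8 had the largest negative log2 ratio of the cluster (-0.48). It was at 0.765 FPKM in live cells (0.655 to 0.875) and 0.265 in processed cells (0.197 to 0.332). PCDHB8 shared 640 of its 2671 windows of 80 nt with PCDHB13, which was higher in processed cells, and 32.5% of its windows with any member, the largest share in the cluster. The part of shared sequence in these values was not tested. PCDHB7 and PCDHB4 were singled out after their values were seen. PCDHB7 was at 0.141 FPKM in live and 0.425 in processed cells (ratio 3.01, 1.95 to 4.90 at the extremes of the bounds), and PCDHB4 at 0.548 and 0.285 FPKM (ratio 0.520). PCDHB6, PCDHB9 and the pseudogene PCDHB18 had overlapping bounds at 0.755 FPKM or below. PCDHB1, which lies apart from the other beta genes, was at 0.0338 FPKM in live cells and listed at 0 in processed cells. PCDHB19P was likewise listed at 0 in processed cells, after 0.0142 FPKM in live cells.

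Gamma genes went both ways, and the difference between types was not tested. Of 8 gamma genes that reached an FPKM of 1 in a library, bounds were apart in 6, with 1 higher and 5 lower in processed cells. Among all genes 71.8% had bounds apart, 28.1% higher and 43.7% lower. The median log2 ratio of the 8 was -0.22. Over the gamma genes at 0.1 or above that median was 0.017, so its direction depended on the filter. Gamma B and gamma C genes were mostly lower in processed cells, with PCDHGB1 as an exception, and several gamma A genes that were near 0 in live cells had a measurable level in processed cells. PCDHGB7 (ENSG00000254122.1), the highest gamma gene in both libraries, was at 8.24 FPKM in live cells (7.92 to 8.56) and 6.77 in processed cells (6.45 to 7.08). PCDHGB4 was at 6.95 FPKM in live cells (6.65 to 7.25) and 3.95 in processed cells (3.66 to 4.25). Its ratio of 0.569 (0.505 to 0.638) was the lowest among gamma B genes at an FPKM of 1 or more, and its log2 ratio of -0.68 was the most negative of the cluster. In the gene models used here PCDHGB4 and PCDHGA8 each had 4443 exonic bases shared with another member. The other gamma genes with constant exons each had 2177, so exons of PCDHGB4 and PCDHGA8 also overlap each other. The part of this overlap in their values was not tested. PCDHGB6 was at 6.84 and 5.96 FPKM, a ratio of 0.872 with bounds apart. PCDHGB6 and PCDHGB7, which have the same promoter letters, also shared 143 windows of their variable exons, and both were lower in processed cells. PCDHGB1 and PCDHGB2 shared more, 235 windows, and went opposite ways. A link between shared sequence and direction was not tested. PCDHGB1 was the gamma B gene that was higher in processed cells, at 0.952 FPKM in live and 1.56 in processed cells (ratio 1.64). PCDHGB2 was at 0.249 FPKM in live cells (0.189 to 0.309) and near 0 in processed cells.

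PCDHGC3, the C-type gene that is also found outside the nervous system, was at 7.51 FPKM in live cells (7.21 to 7.81) and 5.15 in processed cells (4.88 to 5.42), a ratio of 0.686. PCDHGC4, which neurons need for their survival, was at 1.63 and 0.976 FPKM (ratio 0.599) with bounds apart. PCDHGC5 was near 0 in both. The C-type genes at 0.1 or above, PCDHAC1, PCDHAC2, PCDHGC3 and PCDHGC4, were each lower in processed cells with bounds apart, as were 45.5% of all genes at 0.1 or above.

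Gamma A genes differed between the libraries mainly at low level. Above an FPKM of 1 in a library there were 2, PCDHGA10 (2.22 FPKM in live and 1.84 in processed cells) and PCDHGA11 (1.18 and 1.51 FPKM), both with overlapping bounds. Another 5 were near 0 in live cells and at 0.1 or above in processed cells. PCDHGA3 (ENSG00000254245.1) had an upper bound of 0.00450 FPKM in live cells and was at 0.971 in processed cells (0.848 to 1.09). PCDHGA9 was listed at 0 in live cells and was at 0.880 FPKM in processed cells (0.593 to 1.17). PCDHGA12 was listed at 0 in live cells and was at 0.633 FPKM in processed cells (0.493 to 0.772). PCDHGA8 and PCDHGA6 followed the same course. PCDHGA8, whose annotated exons overlap those of PCDHGB4, was at 0.579 FPKM in processed cells (0.406 to 0.753). PCDHGA6 was at 0.213 FPKM there, with bounds from 0 to 0.495 that reached its live value. PCDHGA2 was the reverse case, at 0.131 FPKM in live cells (0.0591 to 0.203) and near 0 in processed cells. PCDHGA1, singled out after its values were seen, was at 0.568 and 0.953 FPKM with bounds apart. The remaining gamma genes PCDHGA4, PCDHGA7 and PCDHGB3 were at 0.0594 FPKM or below in both libraries. Across the 12 gamma A genes the Spearman correlation between the libraries was 0.242, a description over genes of which 6 were near 0 in live cells.

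Counted over the 46 members at an FPKM of at least 0.1 in a library, 6 (13.04%) were near 0 in live cells alone, where 2.55% of 23490 genes were. Near 0 in processed cells alone were 5 (10.9%), where 10.3% of genes were. The 6 were PCDHA13 and the 5 gamma A genes, and the 5 were PCDHA14, PCDHAC1, PCDHAC2, PCDHGA2 and PCDHGB2. No beta gene at 0.1 or above was near 0 in a library. All 11 belong to the clusters with constant exons. In the transcript taken for each gamma A gene, 44.7% to 51.2% of the 80-nt windows were found in other members. The share was alike in gamma B (45.0% to 50.1%) and gamma C (44.5% to 44.9%) and was 48.0% to 65.4% in alpha, so it did not set gamma A apart. The status of these 11 was OK in both libraries except for PCDHA14, and only PCDHGA9 and PCDHGA12, in live cells, were at exactly 0. A value at or near 0 in such a table can be a failed estimate, so no fold is given for these genes. Their log2 ratios rest on the added 1, and the part of the shared exons in them was not tested. Over the same 46 members the bounds were apart and higher in processed cells in 14, where 25.9% of all genes were, and lower in 19, where 45.5% of all genes were. In gamma A this was 5 higher and 1 lower of 9, in gamma B 1 higher and 4 lower of 5, and in gamma C 0 higher and 2 lower of 2.

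Summed over genes, these shifts partly cancelled. All 56 members summed to 134 FPKM in live and 117 in processed cells (ratio 0.875), where the sum over all genes had a ratio of 0.978. Alpha genes summed to 28.5 and 19.5 FPKM, the lowest ratio of the clusters at 0.682. Without the C-type genes it was 0.707. Beta genes summed to 69.1 and 65.9 FPKM, a ratio of 0.954. That direction rested on PCDHB2 and PCDHB5, since the other 16 beta genes summed to 19.5 FPKM in live and 20.4 in processed cells, and it also turned with the scaling by the median ratio (log2 ratio -0.068 as deposited and 0.034 scaled). Gamma genes summed to 36.6 and 32.0 FPKM, a ratio of 0.875. Inside that sum gamma A was at 4.18 and 7.64 FPKM (ratio 1.83), but without the 5 genes that were near 0 in live cells it was at 4.18 and 4.36 FPKM (ratio 1.04). The live values of those 5 can be failed estimates, although their status was OK. Gamma B was at 23.3 and 18.2 (ratio 0.784) and gamma C at 9.14 and 6.13 (ratio 0.671). How evenly a cluster was used was measured by the effective number of genes, the inverse of the summed squared shares. It was 7.38 in live and 7.30 in processed cells for alpha, 3.73 and 3.99 for beta, and 5.83 and 7.54 for gamma. The small number for beta reflects the share of PCDHB2 and PCDHB5, and for gamma A alone, with the same 5 genes, the effective number was 2.64 in live and 6.43 in processed cells.

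**Figure D4:**
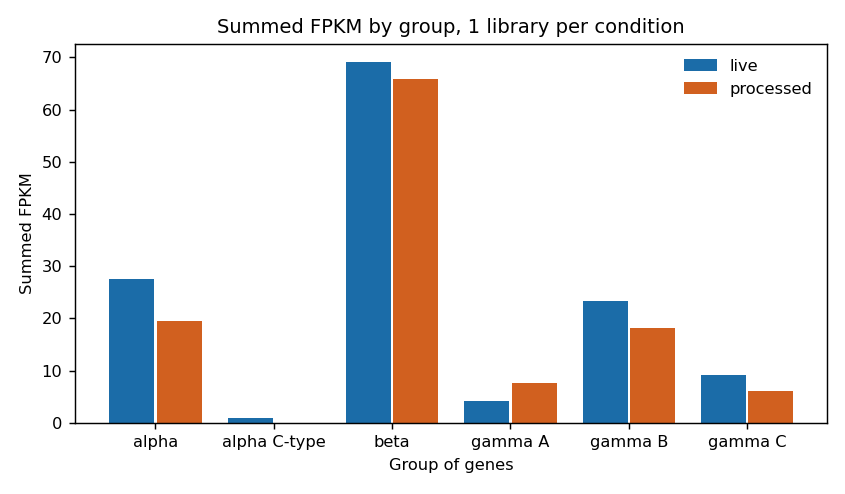
Summed FPKM (y axis, from 0) of each type of clustered protocadherin gene in live (blue) and processed (orange) cells, 1 library each and therefore without error bars. Beta is the highest at 69.1 and 65.9 FPKM, gamma A is higher in processed cells (4.18 and 7.64 FPKM) through the 5 genes that were near 0 in live cells (4.36 FPKM without them), and the alpha C-type sum of 1.01 FPKM is near 0 in processed cells.

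Genes that work with these proteins were mostly at higher levels, and few passed 2-fold. Of 20 listed factors of promoter choice, which include the insulator protein CTCF, cohesin and DNA methylation enzymes, 19 were measured, and all reached an FPKM of 1. In processed cells 0 were more than 2-fold higher (6.57% of all genes) and 1 was lower (6.19% of all genes), the DNA demethylation enzyme TET3, at 6.64 and 2.47 FPKM. CTCF was at 29.1 FPKM in live and 27.1 in processed cells. SMCHD1, a silencing factor that acts on these clusters, was at 14.7 and 9.46 FPKM. The highest gene of the list was TRIM28, at 200 and 179 FPKM. Bounds were apart in 17 of the 19, with 2 higher and 15 lower in processed cells, beside 28.1% and 43.7% of all genes, and the median log2 ratio was -0.18 beside -0.092. Among 19 partners and shedding enzymes, such as the kinases PTK2 and PTK2B, which bind the constant part, 0 passed 2-fold in either direction, beside the same shares of all genes. Bounds were apart in 16 of them, with 3 higher and 13 lower in processed cells, beside 28.1% and 43.7% of all genes. Their median log2 ratio was -0.27 beside -0.092, and the highest, the WAVE complex subunit BRK1, was at 117 and 91.5 FPKM.

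Other cadherins gave a setting for the size of these differences. Of 12 non-clustered protocadherins, 10 reached an FPKM of 1 in a library, 0 passed 2-fold (6.57% of all genes upward and 6.19% downward), and bounds were apart in 8, with 1 higher and 7 lower in processed cells (28.1% and 43.7% of all genes). They summed to 51.5 FPKM in live and 36.1 in processed cells, and their median log2 ratio was -0.37. PCDH8 was at 12.0 FPKM in live and 10.1 in processed cells, so that PCDHB5 and PCDHB2 were above every gene of this list in both libraries. Of 12 classical cadherins and catenins, 11 reached an FPKM of 1, with a median log2 ratio of -0.21. The 1 past 2-fold was CDH11, a cadherin of mesenchymal cells, at 28.3 and 11.4 FPKM. The highest gene was the catenin CTNNB1 in live cells (165 and 118 FPKM) and CDH1, the epithelial cadherin, in processed cells (161 and 195 FPKM).

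Genes beside the clusters did not share 1 direction. ZMAT2, before the alpha cluster, was at 51.5 FPKM in live and 39.7 in processed cells. TAF7, a single-exon gene between beta and gamma, was at 45.4 and 44.7 FPKM. DIAPH1, after the gamma cluster, was at 22.0 and 27.9 FPKM. AC005609.1, which overlaps PCDHA14, was at 0.495 FPKM in live cells and near 0 in processed cells, as PCDHA14 was.

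Because clustered protocadherins are best known from neurons, markers of cells that a Stage 6 culture could hold were set beside them. The 10 neural markers all reached an FPKM of 1 in a library and summed to 210 FPKM in live and 180 in processed cells, mostly TUBB3 (149 and 129 FPKM). Where bounds were apart, 0 were higher and 6 lower, beside 28.1% and 43.7% of all genes, and the median log2 ratio was -0.22 beside -0.092. The 8 endocrine markers summed to 2373 and 2369 FPKM, and each had an FPKM of at least 1 in both libraries. Where bounds were apart, 4 endocrine markers were higher and 0 lower, beside the same shares of all genes. Most of the endocrine sum was CHGA, at 1794 and 1741 FPKM with processed bounds of 0 to 4712, and INS, the insulin gene, was at 98.3 and 121 FPKM. The 8 mesenchymal markers summed to 99.0 and 93.3 FPKM, with 2 higher and 4 lower beside the same shares. Past 2-fold were DCN (4.18 and 12.4 FPKM) and PDGFRB (4.26 and 1.17 FPKM), where 6.57% of all genes were higher and 6.19% lower. The 4 pluripotency markers summed to 152 and 123 FPKM, mostly LIN28A (119 and 88.7 FPKM). Beside the same shares of all genes, 1 was higher and 2 lower with bounds apart, and NANOG was past 2-fold at 1.27 and 7.34 FPKM. The 3 endothelial markers measured summed to 2.02 FPKM in both, and the 5 macrophage markers summed to 4.46 and 1.63 FPKM, with AIF1, CD14 and PTPRC listed at 0 in processed cells. The part of neural or other cells in the protocadherin values was not tested.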

How the data were processed

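RNA-seq values of 1 live and 1 processed library of H1-derived Stage 6 cells were used. Per the labels and the methods, alignment to GRCh37/hg19 was done by the authors with STAR 2.2.0c and GENCODE 14 annotation, and the submitters' processing notes also name Cufflinks 2.0.2. The authors deposited FPKM values per gene each with 2 bounds and a status flag. The level of the bounds is not given in the sources used here. Read counts were not used here.

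Genes were joined by Ensembl identifier. Values were computed with Python 3.11.15, numpy 2.4.6 and pandas 2.3.3, with a pseudocount of 1 and, for ratios, an FPKM of at least 1 in a library. The calculation of log2 ratios and 2-fold calls was tested on simulated data, with changes placed only in genes at higher levels. That test did not cover changes in low genes, the bounds or shared exons. If bounds are read as 2 SD of a fragment count, members at 1 or above in both libraries rested on 141 to 7293 fragments in live cells and on 165 to 6053 in processed cells. The deposited tables hold no read totals, and what the bounds cover besides counting error is not known. In live cells PCDHA5, at 0.222 FPKM, had bounds of 0.00555 to 0.438. Those of PCDHAC2, at 0.121 FPKM, were narrower (0.0827 to 0.160), so the width did not follow the level alone. The fragment numbers are therefore a reading of the bounds and not counts. Gene models came from GENCODE 44 lifted to GRCh37, in which all 56 members were found and 99.98% of matched identifiers overlapped the deposited position. This release is later than the one the authors used.

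Members and gene lists were chosen with earlier results of these data known. Members were named if they reached an FPKM of 1, if they were below 0.001 in one library and at 0.1 or above in the other, if they were the highest of a cluster, or if they had its largest difference in either direction. In lists of other pathway genes the highest gene and genes past 2-fold were named, and cell type marker lists were given by counts. Further genes were named after their values were seen. No test between conditions was possible with 1 sample each. Alternatives covered pseudocounts of 0.1 and 0.01, filters on low FPKM, status, pseudogenes, the leading genes and 2 scalings. PCDHGB5, PCDHB17 and PECAM1 were not analysed here, and some promoter sequences are not reported here.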

Additional observations from a re-analysis of the deposited data

How the results depend on the processing

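No paired analysis was possible because each condition has 1 sample, and for the same reason no replicate could be left out. Scaling by the median ratio raised every processed value by 0.10 on the log2 scale. It gave 1 member more than 2-fold higher (0 as reported), which was PCDHGA3, and turned PCDHB2 to 0.015. The count more than 2-fold lower (1 as reported) was 2 with a pseudocount of 0.1 or 0.01, and 0 where both libraries had to reach an FPKM of 1, where the status had to be OK or where pseudogenes were left out. The alpha median of -0.47 was -0.64 with a pseudocount of 0.01, -0.28 with a filter at 0.1 and -0.14 with no filter on low values. The gamma median of -0.22 was -2.1e-05 with no filter and 0.017 with a filter at 0.1, so the direction of the gamma genes depended on the filter. The beta median of 0.068 was -0.034 with no filter and -0.020 with a filter at 0.1, so its direction depended on the filter as well. The count of members with bounds apart rose from 18 to 34 with no filter. At a threshold of 0.1 the members expressed numbered 40 in live and 41 in processed cells. On the log2 scale the summed beta ratio was 0.064 without PCDHB2 and PCDHB5, and the summed gamma A ratio was 0.061 in place of 0.87 without the 5 genes near 0 in live cells. Both alternatives were chosen after seeing the data. Of the values recomputed for counts, medians and sums, 59 stayed within their bounds or within 1.5 times the count, 13 moved further and 2 turned beyond their bounds. A change of sign inside the bounds was counted as staying. Of the values for single genes, 112 stayed within their bounds and 39 moved without a change of direction, mostly low genes under another pseudocount.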
